A study of Homo sapiens with 10 samples.

Results

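The genes described here control the stress-response factor NRF2. They are KEAP1, NFE2L2, NFE2L1, CUL3, SQSTM1, BACH1, MAFG, MAFF and MAFK, together with the NRF2 target NQO1. All 10 were matched by symbol to 1 Ensembl gene each among the 58037 gene identifiers of the input tables. The same Ensembl identifiers were then looked up in the names of the m6A peaks. All 10 also passed the filter on low counts.

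The study examined the m6A reader YTHDF1 in lung cancer and profiled the RNA and the m6A-marked RNA of 2 human lines. A549 is a lung adenocarcinoma line, and A549/DDP is a derivative of it that resists cisplatin (DDP). Each line had 2 input libraries of fragmented poly(A) RNA and 2 m6A-seq libraries of RNA pulled down with an m6A antibody. Another pair of A549 input libraries has labels that tie it to no experiment and entered only as an alternative (the second pair). Both lines were kept for at most 10 passages in the same medium with serum and antibiotics, and the labels name no gene edit and no drug given before harvest. A549/DDP is a single resistant line, so resistance cannot be told apart from any other difference between the lines, and the labels do not say that replicates were separate cultures.

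NRF2, the protein of NFE2L2, is a transcription factor that pairs with a small MAF protein (MAFF, MAFG or MAFK) on antioxidant response elements and turns on genes of detoxification and redox balance. In unstressed cells KEAP1 holds NRF2 for a CUL3 ubiquitin ligase, and oxidants or the autophagy receptor SQSTM1 (p62), which binds KEAP1, free it. BACH1 occupies the same elements as a repressor, and NFE2L1 encodes the related factor NRF1. A549 cells are known to carry a loss-of-function KEAP1 mutation, so NRF2 protein is held high in them by a route that RNA levels do not show.

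The inputs held between 29225501 and 35286514 expected counts each. The summed TPM of 6 epithelial markers was 8621 and 11389 in A549 and 16047 and 15991 in A549/DDP. Of these, KRT8, KRT18 and CDH1 were higher in both A549/DDP libraries (KRT8 at 2028 and 5231 against 9818 and 9891 TPM), KRT7 and KRT19 were lower (KRT7 at 4937 and 3468 against 1306 and 1255 TPM), and EPCAM overlapped. Those of 3 leukocyte markers (at most 4.86), 3 endothelial markers (at most 0.40), 3 alveolar markers (at most 0.55) and 4 fibroblast markers (2.92 to 19.1) were low. Of the 2 goblet and club markers, SCGB1A1 was at 0 in all 4 libraries and MUC5AC was at 18.1 and 26.5 TPM in A549 and at 362 and 291 TPM in A549/DDP. The part of these differences in the results below was not tested.

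Several of the genes have response-element letters near their own start, which are shown because the same kinds of element are what NRF2, BACH1 and the small MAFs bind. RefSeq promoter windows (GRCh38.p14, 250 bases before to 50 bases after a gene start) were found for 9 of the 10 genes, all but MAFK. They were searched on both strands for TGACNNNGC, the core of the antioxidant response element, and TGANTCA, the AP-1 element that it resembles. The matches are given in capitals, each read 5′ to 3′ on the strand of its gene.
KEAP1, core, chr19:10502807-10502835, minus strand: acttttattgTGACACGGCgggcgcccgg
KEAP1, core on the opposite strand, chr19:10502784-10502812, minus strand: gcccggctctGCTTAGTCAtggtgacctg
MAFF, core on the opposite strand, chr22:38201862-38201890, plus strand: cttccaggggGCGGGGTCAtacgggggcg
BACH1, AP-1 element, chr21:29298863-29298891, plus strand: cgcggaaggagTGAGTCAcctgaccgctg
The core stood at 13.3% of all 35116 windows (4687) and the AP-1 letters at 7.71% (2707). These shares are per window, and the 9 genes had 18 windows, between 1 and 3 each. No share per gene was taken, so the matches are a description of the windows and not binding sites. KEAP1 held 2 core matches in the same window. The other 6 genes with a window held neither set of letters in it.

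Between the lines, KEAP1 and NQO1 RNA were higher in A549/DDP, and NFE2L2, MAFF and MAFK RNA were lower. NFE2L1, CUL3, SQSTM1, BACH1 and MAFG did not pass the test. Thus 5 of the 10 genes were called, 2 higher and 3 lower, by the quasi-likelihood test of edgeR at an adjusted p of 0.05, with p-values adjusted by Benjamini-Hochberg over all 16406 genes tested. Over all genes 14.9% were called, 6.85% higher and 8.0% lower. Leaving out A549/DDP replicate 1 left 2 of the 10 genes called, leaving out A549/DDP replicate 2 left 3, and leaving out A549 replicate 2 raised the count over all genes from 2437 to 3809. Counts are given below as CPM, a gene's share of its library brought to a common total by TMM scaling. They are listed for A549 replicates 1 and 2 and then for A549/DDP replicates 1 and 2. Folds are A549/DDP over A549 on the log2 scale with a standard error (SE). The SE of an edgeR fold was derived from the test, as the absolute log2 fold change over the square root of its F statistic.

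**Figure D1:**
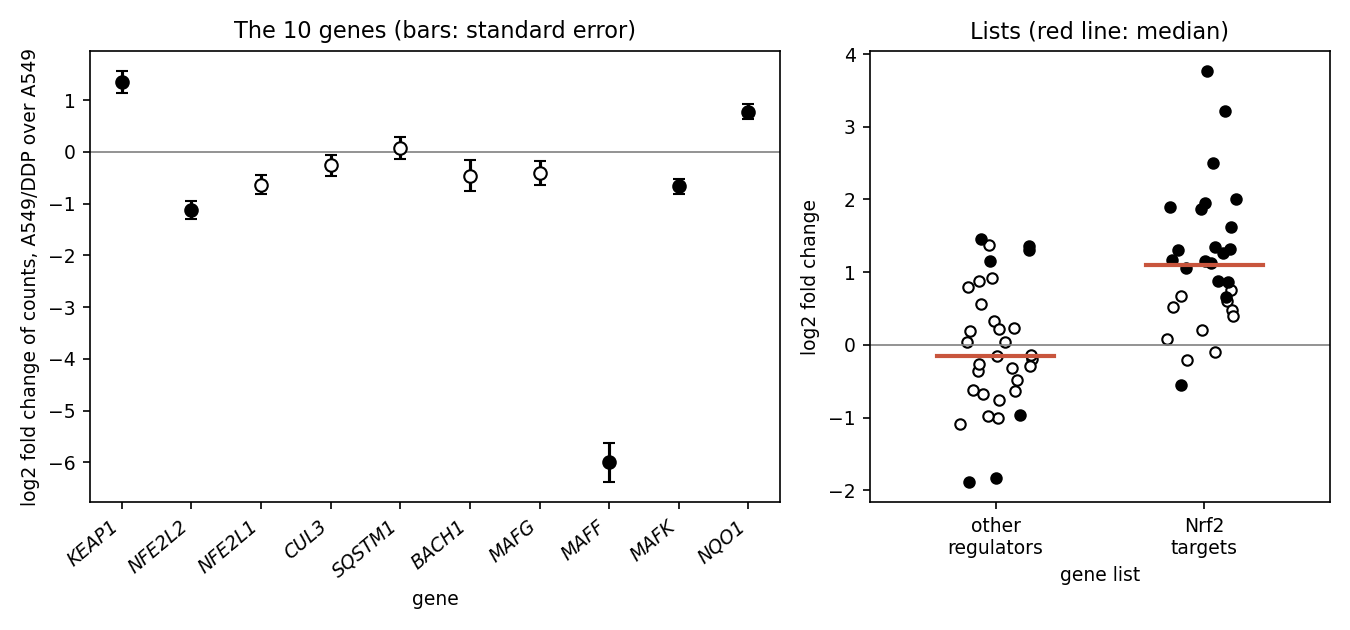
Log2 fold change of input RNA (A549/DDP over A549) for the 10 genes with standard errors (left), and for the tested genes of 2 lists of other pathway regulators and Nrf2 targets (right), filled where the adjusted p was under 0.05. MAFF lies at -6.00, KEAP1 and NQO1 are filled above 0, and the median of the targets (red line) is at 1.10 against -0.16 for the regulators. The grey line at right is the median of all genes.

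KEAP1, the adaptor that presents NRF2 to the ligase, was at 41.9 and 54.5 CPM in A549 and at 129 and 116 CPM in A549/DDP. Both A549/DDP libraries lay above both A549 libraries. The rise was 2.53-fold, a log2 fold change of 1.34 (SE 0.21, edgeR adjusted p = 0.0136). Per length, KEAP1 was at 54.8 and 97.8 TPM in A549 and at 121 and 148 TPM in A549/DDP, which again do not overlap. The estimated mean length of its transcripts was 1216 and 1046 bases in A549 and 1758 and 1344 bases in A549/DDP, so that the TPM difference was smaller than the difference in counts. On the log2(TPM + 1) scale it was 0.86, and limma did not call it (adjusted p = 0.148). On log2(FPKM + 1), at 0.92, it was not called either (adjusted p = 0.112).

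CUL3, the scaffold of the ligase that KEAP1 serves, was at 108 and 107 CPM in A549 and at 78.0 and 102 CPM in A549/DDP. The groups did not overlap, but the log2 fold change of -0.26 (SE 0.20) did not pass the test (edgeR adjusted p = 0.458). By TPM the sign was opposite, at 54.5 and 62.4 in A549 against 64.8 and 57.7 in A549/DDP, and the groups overlapped. SQSTM1, which draws KEAP1 into autophagy, was at 1372 and 942 CPM in A549 and at 1255 and 1177 CPM in A549/DDP. The A549/DDP libraries lay between the 2 A549 libraries, and the log2 fold change was 0.07 (SE 0.21, edgeR adjusted p = 0.870). Its sign and call changed with the A549 libraries used, being 0.35 without A549 replicate 1 (edgeR adjusted p = 0.0092) and -0.19 without A549 replicate 2 (0.233). With the second A549 pair it was 1.17 (edgeR adjusted p = 0.00043), where the median of all genes was 0.80.

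NFE2L2, which encodes NRF2 itself, was at 235 and 206 CPM in A549 and at 95.4 and 106 CPM in A549/DDP. Both A549/DDP libraries were under both A549 libraries, with means of 101 ± 7.37 and 220 ± 20.8 CPM (SD, n = 2 per line). The level in A549 was 2.19 times that in A549/DDP, a log2 fold change of -1.13 (SE 0.17, edgeR adjusted p = 0.0122). TPM gave the same picture, with 211 and 210 in A549 against 91.6 and 105 in A549/DDP. Without A549/DDP replicate 1 the log2 fold change was -1.08 and no longer passed (edgeR adjusted p = 0.0677). NFE2L1, whose factor drives proteasome and other stress genes, was at 614 and 830 CPM in A549 and at 467 and 464 CPM in A549/DDP. The groups did not overlap, and the log2 fold change of -0.63 (SE 0.19) missed the threshold (edgeR adjusted p = 0.0758). On the same 4 libraries it passed with DESeq2 (-0.63, adjusted p = 0.0052), without the filter (-0.65, edgeR adjusted p = 0.0208) and at 10 counts in every library (-0.63, edgeR adjusted p = 0.0272). Where 1 library stood for A549, it was -0.85 without A549 replicate 1 and -0.41 without A549 replicate 2. It did not pass with upper-quartile scaling (-0.58, edgeR adjusted p = 0.0975). Nor did it pass in limma on log2(TPM + 1) (-0.95, limma adjusted p = 0.106), log2(FPKM + 1) (-0.89, 0.106) or log2(TPM + 0.1) (-0.95, 0.124). Without A549/DDP replicate 1 or 2 it was -0.66 and -0.63. NFE2L1 passed in 6 of 14 alternatives.

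BACH1, the repressor of the same elements, was the lowest of the genes in A549 per length. It was at 26.9 and 23.8 CPM in A549 and at 18.9 and 17.9 CPM in A549/DDP. The groups did not overlap, and the log2 fold change of -0.46 (SE 0.30) did not pass (edgeR adjusted p = 0.362).

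The small MAFs, which have no activation domain of their own and serve as partners of NRF2, NRF1 and BACH1, did not move alike. MAFF was at 179 and 105 CPM in A549 and at 1.96 and 2.47 CPM in A549/DDP. Its expected counts were 5885 and 3718 in A549 and 58 and 86 in A549/DDP, so the low values are not at the limit of detection. The A549 mean was 63.9 times that of A549/DDP by the fit, a log2 fold change of -6.00 (SE 0.38, edgeR adjusted p = 0.00168). A larger fall was fitted for 525 other genes. MAFK was at 570 and 601 CPM in A549 and at 374 and 363 CPM in A549/DDP, without overlap. Its log2 fold change was -0.67 (SE 0.15, edgeR adjusted p = 0.0324), and without A549/DDP replicate 1 or 2 it was -0.71 and -0.66 and did not pass (edgeR adjusted p = 0.171 and 0.211). MAFG was at 153 and 123 CPM in A549 and at 87.6 and 121 CPM in A549/DDP. Its highest A549/DDP value lay just under its lowest A549 value, and the log2 fold change of -0.40 (SE 0.23) did not pass (edgeR adjusted p = 0.292). By TPM, at 49.4 and 49.2 in A549 against 27.4 and 50.6 in A549/DDP, the groups overlapped.

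NQO1, a quinone reductase often read as a marker of NRF2 activity, was at 647 and 607 CPM in A549 and at 1119 and 1029 CPM in A549/DDP. Both A549/DDP libraries were above both A549 libraries. The log2 fold change was 0.78 (SE 0.15, edgeR adjusted p = 0.0217). By TPM it was at 972 and 1018 in A549 and at 1733 and 1490 in A549/DDP. Without A549/DDP replicate 1 it was 0.69 and without replicate 2 it was 0.83, and neither passed (edgeR adjusted p = 0.152 and 0.0931).

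**Figure D2:**
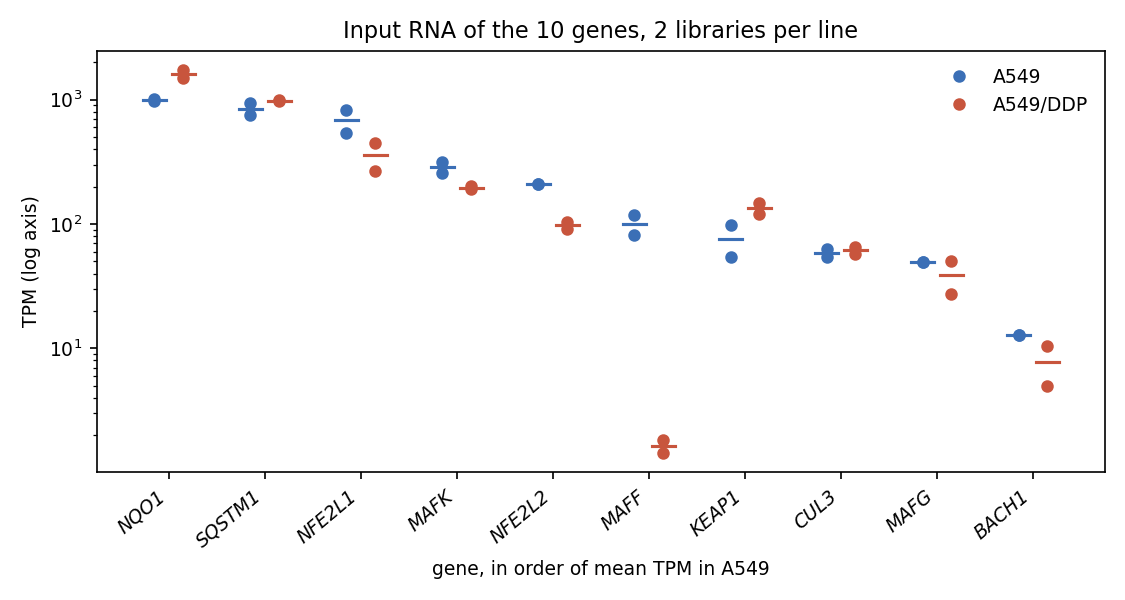
TPM of the 10 genes in the 2 input libraries of A549 (blue) and of A549/DDP (red) on a log axis, with a line at each mean. NQO1 is the highest gene in both lines, and MAFF drops from 119 and 81.4 TPM in A549 to 1.44 and 1.83 TPM in A549/DDP.

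Levels were then ordered per length, by mean TPM. In A549 the order ran NQO1, SQSTM1, NFE2L1, MAFK, NFE2L2, MAFF, KEAP1, CUL3, MAFG and BACH1. The ranges over 2 libraries overlapped for SQSTM1 and NFE2L1, for MAFF and KEAP1, and for KEAP1 and CUL3. In A549/DDP the order ran NQO1, SQSTM1, NFE2L1, MAFK, KEAP1, NFE2L2, CUL3, MAFG, BACH1 and MAFF, and no neighbours overlapped. KEAP1 thus stood below NFE2L2 in A549 and above it in A549/DDP. Other TPM values near the middle of the order were 258 and 314 for MAFK in A549, and 200 and 192 in A549/DDP. NFE2L1 was at 542 and 832 TPM in A549 and at 449 and 268 TPM in A549/DDP. Its estimated mean transcript length was 1748 and 1770 bases in A549 and 1722 bases in A549/DDP replicate 1 but 2818 bases in replicate 2. BACH1 lengths showed the same library apart, at 3148, 3195 and 2915 bases against 5669 bases in A549/DDP replicate 2, and its TPM there was 5.01 against 12.8, 12.8 and 10.4 in the other 3.

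The ratio of KEAP1 to NFE2L2 was 0.260 and 0.466 in A549 and 1.32 and 1.41 in A549/DDP (TPM over TPM). The 2 lines did not overlap, the log2 difference was 1.97, and the exact two-sided permutation test gave p = 0.333, the smallest that 2 against 2 libraries allow. NQO1 over NFE2L2 was 4.61 and 4.86 in A549 and 18.9 and 14.2 in A549/DDP, with the same p by the same exact test. NFE2L1 over NFE2L2 was 2.57 and 3.97 in A549 against 4.90 and 2.56 in A549/DDP, with overlap (exact permutation p = 1). The small MAFs were also summed, a measure chosen after their values were seen. Together they were at 426 and 445 TPM in A549 and at 229 and 244 TPM in A549/DDP. MAFF made up 27.9% and 18.3% of this sum in A549 and 0.628% and 0.750% in A549/DDP, while MAFK made up 60.5% and 70.6% against 87.4% and 78.5%.

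**Figure D3:**
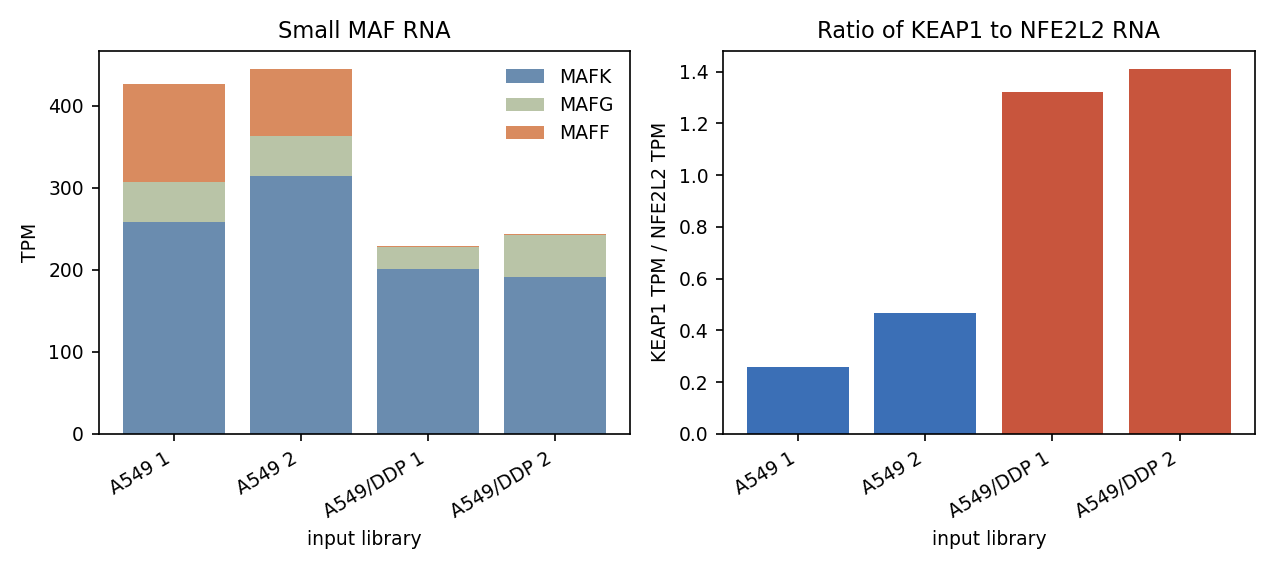
Stacked TPM of the 3 small MAF genes (left) and the ratio of KEAP1 TPM to NFE2L2 TPM (right) in each input library, with 1 bar per library. The MAFF segment is nearly absent from both A549/DDP bars, and the ratio is above 1 only in A549/DDP, at 1.32 and 1.41.

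The other genes of the pathway were read from the same fit. Of 36 further regulators, a list also chosen with earlier results of these data known, 33 passed the filter. Of these, 4 were higher and 3 lower in A549/DDP, beside 6.85% higher and 8.0% lower over all genes. Their median log2 fold change was -0.16, beside -0.00159 over all genes. Without A549 replicate 2, 14 of them were called. Those higher were VCP, the segregase that extracts proteins for degradation (1.31, edgeR adjusted p = 0.0062), SYVN1, a ubiquitin ligase of the endoplasmic reticulum that acts on NRF2 (1.37, 0.0103), DPP3, a peptidase that competes for KEAP1 (1.46, 0.0124), and the nuclear receptor RXRA, which binds NRF2 (1.16, 0.0182). Those lower were the co-activator CREBBP (-1.83, edgeR adjusted p = 0.0043), the autophagy receptor NBR1 (-1.88, 0.0102) and the chromatin remodeller CHD6 (-0.96, 0.0387). Of 14 alternatives, the call was lost in 6 for CHD6, 5 for RXRA, 3 for SYVN1 and 2 for NBR1. It was lost in 1 each for VCP and CREBBP and in 0 for DPP3. VCP, for example, was at 443 and 491 CPM in A549 and at 1217 and 1098 CPM in A549/DDP.

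Of 30 known NRF2 targets other than NQO1, all were tested, and 19 were higher and 1 lower in A549/DDP. Over all genes 6.85% were higher and 8.0% lower. The median log2 fold change was 1.10 for the targets and -0.00159 over all genes. Targets not called were ABCC3 (0.60), IDH1 (0.68), TKT (0.52), GSR (0.76), SLC7A11 (0.48), GCLC (0.39), TXN (0.21), FTH1 (0.09), ME1 (-0.21) and PIR (-0.10). Their edgeR adjusted p ran from 0.0532 (ABCC3) to 0.900 (PIR). The list was chosen with earlier results of these data known, and it contains AKR1C1, which the study follows as an NRF2 target. It is therefore independent neither of these data nor of the study's own choice. Its contrast with all genes is a description and not a test. The 12 with the smallest adjusted p were all higher. AKR1C1, a ketosteroid reductase, was at 105 and 113 CPM in A549 and at 1043 and 969 CPM in A549/DDP (log2 fold change 3.21). GPX2, a glutathione peroxidase, was at 15.8 and 32.5 CPM against 329 and 328 CPM (3.76), and HMOX1, which breaks down haem and is also a BACH1 target, was at 27.1 and 21.3 CPM against 142 and 132 CPM (2.50). The rest were AKR1C3 (2.01), EPHX1 (1.90), AKR1B10 (1.86), GCLM (1.62), AKR1C2 (1.35), CBR1 (1.32), ALDH3A1 (1.17), TALDO1 (1.13) and ABCC2 (1.06), with edgeR adjusted p between 0.0016 (AKR1C1) and 0.0122 (CBR1). The AKR1C genes are near-identical copies among which reads can be split, so their single values are uncertain. The 1 lower target was TXNRD1, thioredoxin reductase (log2 fold change -0.55, edgeR adjusted p = 0.0483), a call lost in 9 of 14 alternatives, among them those without A549/DDP replicate 1 (-0.58, edgeR adjusted p = 0.219) or 2 (-0.54, 0.258).

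Genes whose pattern over the 4 inputs was most like that of a member were named by the Euclidean distance of centred log2 CPM, among 9827 candidates at a mean of 10 CPM or more. For KEAP1 these were FASN (distance 0.0779), NINL (0.0786) and BCR (0.0828). For NFE2L2 they were MTREX (0.0210), ZCRB1 (0.0411) and BLZF1 (0.0422). For NQO1 they were RPN2 (0.0395), CANT1 (0.0412) and TYK2 (0.0426). Over 4 libraries of 2 lines this likeness is a description only.

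The m6A peak lists held 26320 and 14576 peaks in A549 replicates 1 and 2 and 27244 and 10661 in A549/DDP replicates 1 and 2. They name called peaks with a p-value and no level or read number, so a missing peak is not a measured absence of m6A, and the depth behind it is unknown. Of the 10 genes 6 (KEAP1, NFE2L1, SQSTM1, BACH1, MAFF and MAFK) had a peak in both A549 lists, where 27.1% of all tested genes had one. In both A549/DDP lists 4 (NFE2L2, NFE2L1, MAFG and MAFK) had a peak, against 19.5% of tested genes, and without A549/DDP replicate 2 the count was 8. NFE2L1 and MAFK had peaks in all 4 lists, as 13.9% of tested genes did, and MAFF alone had peaks in both A549 lists and in neither A549/DDP list, as 4.62% did. The tested genes include genes with far less RNA in A549 than any of the 10. No share was taken at matched RNA levels, so these shares do not show that the 10 genes are richer in m6A.

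KEAP1 carried 6 and 5 peaks in the A549 libraries, 3 in A549/DDP replicate 1 and none in A549/DDP replicate 2, the shortest list. They covered 1439, 797 and 943 bases. Within each library every KEAP1 peak bore the same p-value (5.1e-08, 3.8e-08 and 3.5e-07). Merged over libraries they gave 6 regions, of which 2 were called in both A549 lists and in no A549/DDP list, at chr19:10486169-10486318, 44 bases from the 3′ end of the gene, and at chr19:10499493-10499691. Another 3 were called in both A549 lists and in A549/DDP replicate 1. KEAP1 RNA was the higher in A549/DDP.

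NFE2L2 showed the other arrangement, with no peak in A549 replicate 1 and 3, 4 and 6 peaks in A549 replicate 2 and A549/DDP replicates 1 and 2. They covered 951, 1897 and 1301 bases, mostly near the 3′ end (chr2:177230594-177232356). The only region of the 10 genes called in both A549/DDP lists and in no A549 list was in NFE2L2, chr2:177233988-177263517. Its blocks cover 399 bases, and the remainder is the gap between blocks. When peaks had to share 50% of the shorter one, no such region was left.

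MAFF carried 5 and 4 peaks in A549 and none in A549/DDP. They formed 4 regions, 3 of them called in both A549 lists, at chr22:38202059-38202307, 65 bases from the gene start, at chr22:38214424-38215368 and at chr22:38215716-38215965. Peaks were lacking in the same libraries where MAFF RNA was at 1.96 and 2.47 CPM, and the part of that low level in the lack of peaks was not tested.

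MAFK had 4, 3, 5 and 6 peaks in the 4 libraries, in the same order as above, and 2 of its 4 regions (chr7:1540072-1540319 and chr7:1540468-1542251) were called in all of them. NFE2L1 had 1, 3, 3 and 4 peaks, with 1 region of 1992 bases in all 4 libraries (chr17:48058301-48060292). SQSTM1 had 5, 3, 5 and 0, BACH1 2, 4, 7 and 0, and MAFG 3, 0, 4 and 1. CUL3 had 6 peaks in A549/DDP replicate 1 and none elsewhere, and NQO1 had 2 in A549/DDP replicate 2 and none elsewhere, although its RNA was the most abundant of the 10 per length.

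**Figure D4:**
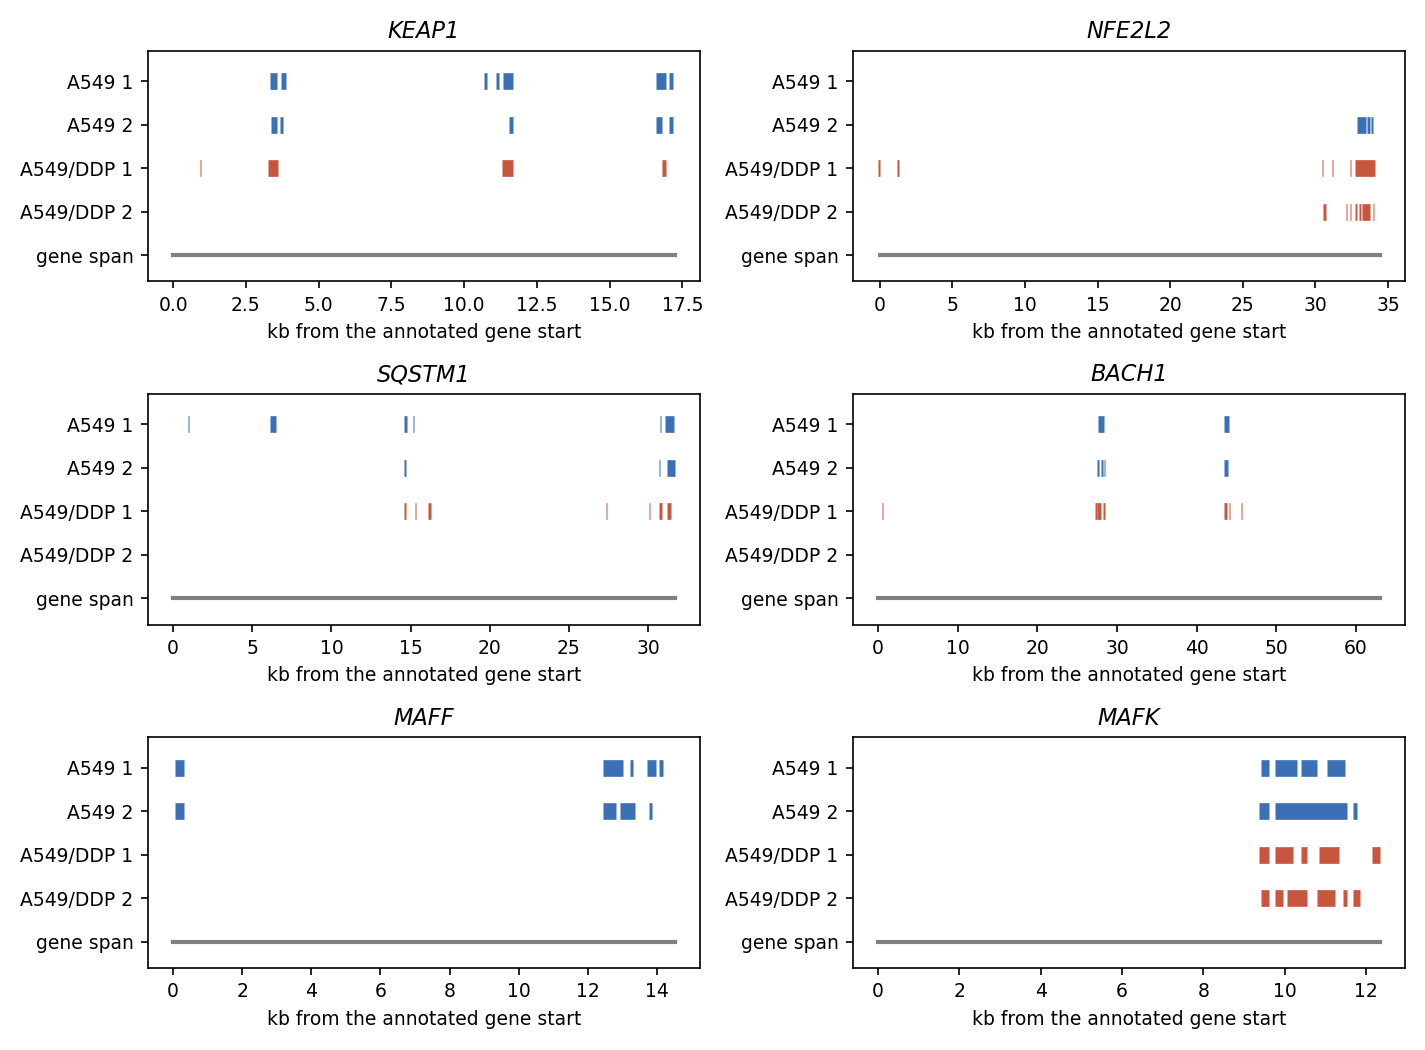
Blocks of called m6A peaks in 6 of the genes, by distance from the annotated gene start in kilobases along the gene (grey: gene span, introns included), in the 2 A549 (blue) and 2 A549/DDP (red) m6A-seq libraries. MAFF rows are empty in both A549/DDP libraries, MAFK blocks sit near the 3′ end in all 4, and KEAP1, SQSTM1 and BACH1 have none in A549/DDP replicate 2.

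Of the 50 merged regions of the 10 genes, 28 were called in 1 library only, 3 in all 4, 5 in both A549 lists alone and 1 in both A549/DDP lists alone. Among all 37903 merged regions 6.12% were called in both A549 lists alone and 3.09% in both A549/DDP lists alone. The first count rose to 12 without A549 replicate 2 and to 13 without A549/DDP replicate 1. The second rose to 2 with either A549 library left out, to 6 without A549/DDP replicate 1 and to 18 without A549/DDP replicate 2. By position, 20 of the 50 regions lay within 3000 bases of the 3′ end of their gene. This distance includes introns, in genes that span from 12342 (MAFK) to 115214 bases (CUL3). The share over all regions was not taken, so no preference for the 3′ end is read from it. Regions are given in hg38, and which exon or UTR they fall in was not analysed here.

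**Figure D5:**
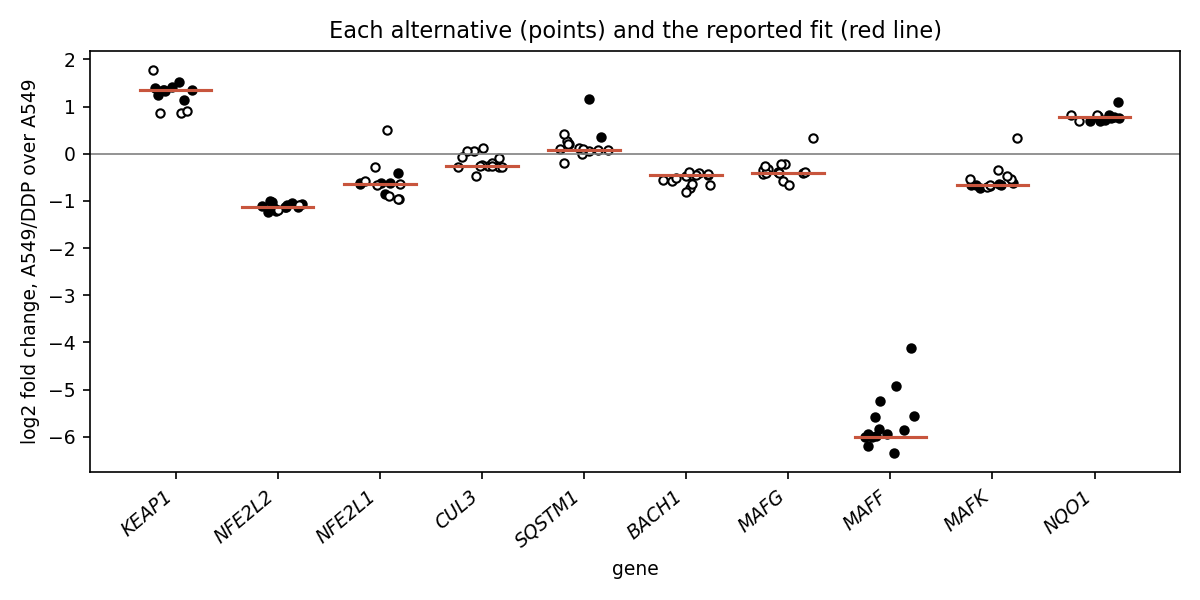
Log2 fold change of each gene under each alternative (points, filled where the adjusted p was under 0.05) and in the reported fit (red line), leaving out KEAP1 with the second pair of A549 inputs, where its count was 0. MAFF stays below -4 with every point filled, while CUL3, BACH1 and MAFG have no filled point.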

How the data were processed

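RNA of A549 and A549/DDP cells was sequenced as input and m6A-seq libraries (dUTP strand-specific, paired-end, NovaSeq). The submitters' processing notes name hg38, STAR, RSEM and bedtools without roles or versions. The peak caller, and whether genes were counted by strand, are not given in the sources used here. Per input library the authors deposited RSEM-type expected counts (estimated counts, not normalized), TPM and FPKM, which the authors' program corrects for length and depth. The m6A lists deposited by the authors give peaks per library with a p-value, raw or adjusted not stated. For the A549 m6A-seq libraries replicate numbers in labels and file names are exchanged, and the labels were followed.

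Symbols were matched by Ensembl identifier (56948 of 58037). Expected counts were rounded, filtered (filterByExpr) and fitted with edgeR 4.0.16 (TMM, quasi-likelihood test, Benjamini-Hochberg, threshold 0.05) in R 4.3.3 on the 4 inputs, without covariates. The paper names no expression test for these inputs. Alternatives were DESeq2 1.42.0, limma 3.58.1 on log2(TPM + 1), log2(FPKM + 1) or log2(TPM + 0.1), other filters and scaling, the second A549 pair, a replicate block and each library left out. The limma values are on a log2(value + pseudocount) scale, which understates changes of low genes. Peaks were merged on the same strand where they shared at least 1 base. The members and gene lists were chosen with earlier results of these data known. Named are all 10 members, up to 12 called genes per list by adjusted p, and 3 like genes each for KEAP1, NFE2L2 and NQO1. The lower target and the targets not called are named as well. The edgeR procedure was run on data simulated with planted changes, at the common dispersion of these data and at a smaller one. The outcome is not reported here, so it gives no measure of how the procedure performs on these data. Replicates of a line differed by more than sampling noise (chi-square per degree of freedom 91.3 and 54.1). P-values measure only the spread between these libraries, which may be technical, and the common biological coefficient of variation over all genes was 0.656. The floors given for a count of 0 cover counting error only, while the SE of an edgeR fold also holds the spread between libraries. YTHDF1-bound RNA was not analysed here.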

Additional observations from a re-analysis of the deposited data

Results flagged for a closer look

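The second pair of A549 inputs was used only as an alternative, and 7 of the 10 genes had more expected counts in both of its libraries than the 3 that a count of 0 allows. In replicates 1 and 2, NFE2L2 had 24 and 24 expected counts, NFE2L1 33 and 46, CUL3 4 and 19, SQSTM1 71.66 and 57, MAFG 8 and 12, MAFK 21.51 and 48, and NQO1 48 and 72. These libraries held 855034 and 982036 expected counts in all, of which 75.2% and 73.9% fell on mitochondrial genes.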

How the results depend on the processing

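Of the 5 called genes, MAFF passed in all 14 alternatives, NFE2L2 in 12, NQO1 in 11 and MAFK in 7, and KEAP1 passed in 9 of 13, leaving out the second pair, where it was at 0. MAFF, NFE2L2, NQO1 and KEAP1 kept their sign in all of these. The cause of the differences was not tested. The second pair reversed the sign of NFE2L1 (0.50), MAFG (0.33) and MAFK (0.34), but the median of all genes in that fit was 0.80. These genes lay under the median of all genes there, as they did in the reported fit. SQSTM1 rose to 1.17 (edgeR adjusted p = 0.00043) and NQO1 was at 1.11, to be read against the same median. Signs and calls in that fit are counted from 0. CUL3 reversed in limma, at 0.067 on log2(TPM + 1), 0.13 on log2(FPKM + 1) and 0.068 on log2(TPM + 0.1), and SQSTM1 ranged from -0.19 to 0.35 with 1 library left out. Genes called in all, 2437 as reported, were 4278 with DESeq2, 4010 without a filter, 1492 and 1177 with limma on log2(TPM + 1) and log2(TPM + 0.1), 3758 with the second pair, 677 with both pairs, and 2052 to 3809 with 1 library left out. Of the 10 genes, 3 were called in each limma fit, 1 with both pairs and 2 to 7 with 1 library left out. Regulators called, 7 as reported, were 11 with DESeq2, 12 without a filter, 12 at 10 counts in every library, 4 and 4 in limma on TPM with either pseudocount, 13 with the second pair, 1 with both pairs and 5 to 14 with 1 library left out. Targets called, 20 as reported, were 5 with both pairs and 14 to 26 with 1 library left out. Without A549/DDP replicate 1 the median of all genes moved to -0.20.

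Same-numbered inputs did not deviate together over genes (correlation 0.0259), and the reported fit left them unpaired. With 2 libraries per line this value cannot show whether same-numbered libraries were prepared together. With the replicate block 3536 genes, 9 regulators and 23 targets were called, and NFE2L1 passed (edgeR adjusted p = 0.0378).

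Genes with a peak in every A549 list, 6 as reported, were 1 at a p-value of 1e-05 or less, 3 with lists of equal length and 6 to 7 with 1 library left out. For A549/DDP, 4 as reported, they were 1, 1 and 4 to 8, and 9 where either replicate was enough. Regions of A549 alone, 5 as reported, were 2 at the stricter p-value, 11 where either replicate was enough and 5 to 13 with 1 library left out. Those of A549/DDP alone, 1 as reported, were 0 at 50% overlap, 23 where either replicate was enough and 2 to 18 with 1 library left out. The ratio of KEAP1 to NFE2L2 gave no value with the second pair.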

Other observations

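KEAP1 was at 0 expected counts in both libraries of the second A549 pair. A count of 0 allows up to 14.2 and 11.7 CPM, taken over counts outside mitochondrial genes (3 counts per library), while the first pair had 39.1 and 55.9 on the same scale, which would have been 8.28 and 14.3 counts at this depth. MAFF had 8 and 1 and BACH1 1 and 6 expected counts there. All of the genes other than KEAP1 were also under their first-pair level in both libraries. SQSTM1, for example, had 71.66 and 57 counts where that level would have been 271 and 247. NFE2L1 had 33 and 46 where it would have been 121 and 218. A lower value in the second pair is therefore not particular to KEAP1.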
